A study of Mus musculus with 6 samples.

Results

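Potassium channel genes, here all genes whose symbol starts with Kcn, were described in retinas of WT and Nrl-/- mice. They were chosen by name alone from a table of 15142 mRNA transcripts of 12145 gene symbols, in which 75 transcripts of 57 symbols were Kcn transcripts. These covered 57 of the 94 protein-coding Kcn symbols in the GENCODE vM1 annotation, and the other 37 were not analysed here. The 57 symbols carried 17 different subfamily letters after Kcn, from 11 symbols for the inward rectifiers (Kcnj) to 1 symbol each for Kcnf, Kcns, Kcnt and Kcnv. Whole retinas of 3 WT mice (strain C57BL/6 in the labels and C57Bl/6J in the study's methods) and 3 Nrl-/- mice on the same background were taken at postnatal day 21, with no other treatment, and each library came from 1 mouse. Nrl-/- mice lack the neural retina leucine zipper transcription factor in every cell and at every stage, and photoreceptors that would become rods develop with cone features instead. Values are FPKM, fragments normalized for transcript length and library size, and each log2 change is the Nrl-/- mean minus the WT mean of log2(FPKM + 1). The study reports that FPKM was underestimated for some genes with pseudogenes, such as Gapdh, so comparisons between genes carry that limit. A change is said to rise or fall where limma gave a Benjamini-Hochberg adjusted p under 0.05 over all 15142 transcripts.

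Potassium channels let potassium ions cross the membrane and set how far and how fast a cell depolarizes. Most voltage-gated (Kv) channels are tetramers of pore subunits that open with depolarization. Silent Kv subunits form no channel alone and join Kv2 pores, and auxiliary subunits bind to pores and change their gating. Inward rectifiers (Kir) and tandem-pore-domain (K2P) channels act near the resting potential, and calcium-activated channels couple it to calcium. In photoreceptors a Kv current in the inner segment carries the outward part of the dark current and shapes the response to light, and in Müller glia Kir channels take up and redistribute the potassium that neurons release.

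Nrl had an FPKM of 552, 583 and 500.5 in WT replicates 1 to 3 and of 0.919, 0.879 and 0.959 in Nrl-/- replicates 1 to 3 in its most abundant transcript. All 12 rod marker genes fell, with a median log2 change of -4.96, and all 10 cone marker genes rose, with a median of 3.54. The summed rod markers ranged from 6433 to 7204 FPKM in WT and from 262 to 277 in Nrl-/- libraries, and the rod markers Nr2e3 and Cnga1 were under 0.1 FPKM in Nrl-/- libraries. The cone markers ranged from 562 to 681 and from 6627 to 6805 FPKM. Xist was abundant in WT replicate 2 alone (186 FPKM against at most 0.0497 in the others). The summed FPKM of the whole table lay between 194769 and 201117 in the 6 libraries. In bulk retina, fewer cells of a type and less RNA per cell cannot be told apart.

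Among the Kcn transcripts 12 rose and 3 fell in Nrl-/- retina, each from a different gene, and 60 did not pass the adjusted p. The share that rose was 16% of the 75, beside 26.7% of all transcripts tested, and the share that fell was 4%, beside 10.1% of all. With a change of at least 1.5-fold added, 6 rose and 3 fell, 8% and 4% of the 75, beside 5.71% and 3.59% of all transcripts. All 15 had genotypes that did not overlap. In total 15 Kcn transcripts had every Nrl-/- library above every WT library and 6 had every one below, or 20% and 8%, beside 34.9% and 14.2% of all transcripts. Those not past the adjusted p included forms of Kcnip4 and Kcnj6 on the higher side and Kcna2, Kcnh7 and Kcnq3 on the lower side. The median log2 change was 0.04 over the Kcn transcripts and 0.08 over all transcripts. Scaling by median-of-ratios moved the median of all transcripts from 0.08 to -0.004 and the share of risen among all changed transcripts from 72.7% to 52.0%, and then 11 Kcn transcripts rose and 5 fell. These were 14.7% and 6.67% of the 75, beside 16.3% and 15% of all transcripts under that scaling. Of the genes named here, the rise of Kcnk1 was the one lost under that scaling, and Kcna2 and Kcnq3 were added to those that fell.

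**Figure D1:**
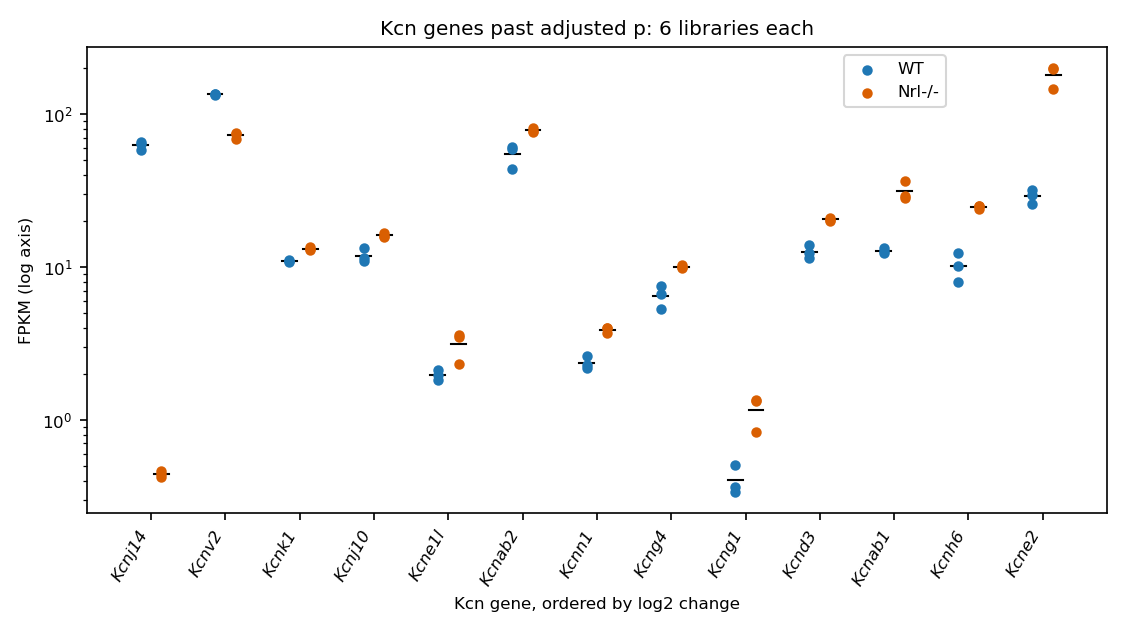
FPKM of 13 of the 15 Kcn genes past the adjusted p in each of the 6 libraries, on a log axis, with WT in blue, Nrl-/- in orange and the mean of 3 libraries as a bar, ordered from the lowest to the highest log2 change. Kcnj14 is at 58.3 FPKM or more in WT and at 0.464 or less in Nrl-/- libraries, and Kcne2 moves from at most 31.9 to at least 146 FPKM.

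Of the 3 genes that fell, Kcnj14 and Kcnv2 were both among the abundant Kcn genes of WT retina. Kcnj14 encodes the inward rectifier Kir2.4, and its transcript NM_145963 lies on chr7:53071837-53080117 (NCBIM37, minus strand). Its FPKM was 65.7, 63.9 and 58.3 in WT replicates 1 to 3 and 0.424, 0.464 and 0.444 in Nrl-/- replicates 1 to 3. No Nrl-/- library came near the WT range, and the ratio of the mean FPKM values was 141-fold. The log2 change was -5.46 ± 0.06 (SE, n = 3 per genotype, limma adjusted p = 3.8e-11), and it understates the fall because 1 is added to each FPKM. With a pseudocount of 0.1 the log2 change was -6.85.

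Kcnv2 encodes Kv8.2, a silent subunit that joins Kv2 pores in photoreceptor inner segments, and lies on chr19:27397078-27411669 on the plus strand. In human, loss of KCNV2 causes a cone dystrophy with an enlarged rod response. Its FPKM was 133, 136 and 136 in WT and 75.6, 74.1 and 68.6 in Nrl-/- replicates 1 to 3. The libraries of each genotype lay close together and the genotypes were apart, with a mean ratio of 1.86-fold (log2 change -0.89 ± 0.06, limma adjusted p = 2.8e-06). Kcnj14 and Kcnv2 fell, as did the 12 rod markers, whose median log2 change was -4.96. The change of Kcnv2 was far smaller than that median and near the -0.74 of the rod marker Gngt1. Gngt1 had the smallest fall of the 12 rod markers, and the others ran from -3.6 (Pde6a) to -10.99 (Gnat1). Kcnv2 kept 72.8 ± 3.72 FPKM (SD, n = 3) in Nrl-/- retina. The part of rod markers in the falls of Kcnj14 and Kcnv2 was not tested.

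Among the auxiliary subunits of voltage-gated channels, 4 of 9 symbols rose and none fell, and the median log2 change was 0.21. Over all 12145 symbols, each by its most abundant transcript, 28.3% rose and 10.2% fell. These shares stand beside the counts of the other classes below too. Kcne2, the single-span subunit MiRP1 that associates with Kv7, ERG and other pores, showed the highest rise of all Kcn genes. It lies on chr16:92292634-92298374 on the plus strand, and its FPKM was 29.7, 31.9 and 25.7 in WT and 199.9, 197 and 146 in Nrl-/- replicates 1 to 3. The lowest Nrl-/- library was well above the highest WT library, and the mean rose 6.22-fold (log2 change 2.59 ± 0.12, limma adjusted p = 4.9e-07). In Nrl-/- retina Kcne2 had the highest mean of all Kcn genes at 181 ± 30.3 FPKM (SD, n = 3), followed by Kcnab2 at 78.6 ± 2.85.

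The cytoplasmic subunit Kvβ1, encoded by Kcnab1 at chr3:64913306-65182145 on the plus strand, speeds the inactivation of Kv1 channels. Kcnab1 had an FPKM of 12.4, 13.3 and 12.7 in WT and of 29.3, 28.2 and 36.5 in Nrl-/- retina, with no overlap. Its mean rose 2.45-fold (log2 change 1.22 ± 0.09, limma adjusted p = 9.9e-06). The related Kcnab2, encoding Kvβ2, was the more abundant one, with 61.2, 59.1 and 43.9 FPKM in WT and 81.7, 77.8 and 76.2 in Nrl-/- libraries. Its rise was 1.43-fold in mean FPKM (log2 change 0.53 ± 0.11, limma adjusted p = 0.0056), and WT replicate 3 was the lowest library. An exon of Kcnab2 overlaps Gm16334 on the same strand. Kcne1l, the X-linked KCNE5 subunit, had 1.97, 2.12 and 1.83 FPKM in WT and 3.59, 3.47 and 2.32 in Nrl-/- libraries, so that Nrl-/- replicate 3 lay just above the WT range. Its log2 change of 0.46 ± 0.12 passed the test (limma adjusted p = 0.018) but did not without Nrl-/- replicate 1 (0.38, adjusted p = 0.074) or without Nrl-/- replicate 2 (0.40, adjusted p = 0.068).

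Kcnab3 and the 4 Kcnip genes, which encode the calcium-binding KChIP partners of Kv4 channels, did not pass the test. Kcnip3 was the highest of the Kcnip genes, with 13.3, 12.1 and 10.8 FPKM in WT and 11.6, 13.5 and 12.2 in Nrl-/- retina, and its genotypes overlapped. For Kcnip2 the 95% interval of the log2 change ran from -0.29 to 0.72, the one interval among the 42 genes not past the test that reached beyond 1.5-fold on the scale of FPKM + 1. Summed over its 3 transcripts, Kcnip2 rose by a log2 change of 0.32 (limma adjusted p = 0.0057), while none of them passed alone. The subunits of BK channels, Kcnmb2 and Kcnmb4, had a median log2 change of 0.03 and did not pass.

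In the voltage-gated pore class (Kcna, Kcnb, Kcnc and Kcnd), 2 of 15 symbols rose and 1 fell. Kcnd3 encodes Kv4.3, a subunit of transient A-type channels, and lies on chr3:105255248-105476920 on the plus strand. Its main transcript NM_001039347 had 13.9, 12.4 and 11.4 FPKM in WT and 20.4, 21.0 and 20.0 in Nrl-/- libraries, without overlap. The ratio was 1.63 (log2 change 0.67 ± 0.07, limma adjusted p = 1.2e-04), and an exon of 1700095B22Rik overlaps Kcnd3 on the opposite strand. Kcna2, which encodes the axonal subunit Kv1.2, had 12.8, 10.5 and 10.2 FPKM in WT and 9.27, 10.004 and 9.2 in Nrl-/- retina, so that its genotypes were apart. It did not pass with all libraries, and its log2 change of -0.21 (limma adjusted p = 0.093) became -0.30 (adjusted p = 0.023) under median-of-ratios scaling and -0.27 (adjusted p = 0.046) without WT replicate 3.

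The Kv1 pores themselves, Kcna1 to Kcna6, did not pass the test, and Kcna5 was the highest of them at 22.3 ± 2.60 FPKM in WT and 22.9 ± 0.764 in Nrl-/- retina (SD, n = 3). Its 95% interval of the log2 change was -0.14 to 0.22. Kcnb2, encoding Kv2.2, had a log2 change of -0.01 with an interval of -0.19 to 0.17.

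The silent subunits were 5 genes (Kcnf1, Kcng1, Kcng4, Kcns2 and Kcnv2), of which 2 rose and Kcnv2 fell. Kcng4 encodes Kv6.4, which like Kv8.2 combines with Kv2 pores. Its FPKM was 7.46, 6.62 and 5.32 in WT and 10.3, 9.93 and 9.78 in Nrl-/- libraries, which did not overlap (log2 change 0.57 ± 0.10, limma adjusted p = 0.0020). Kcng1, encoding Kv6.1 at chr2:168085617-168107236 on the minus strand, was close to the lower limit of the table with 0.505, 0.338 and 0.366 FPKM in WT and 1.35, 1.33 and 0.828 in Nrl-/- retina. The 2.90-fold ratio of means corresponded to a log2 change of 0.62 ± 0.12 after the pseudocount (limma adjusted p = 0.0035). The table is limited to transcripts that reached an FPKM of 1 in some library, and Kcng1 did so in Nrl-/- libraries alone, as did 2 minor Kcnip forms, while Kcnj14, Kcnk12 and Kcnq3 did so in WT libraries alone. Such a member could enter the table only by its higher genotype. Kcnf1 (0.989 ± 0.124 in WT and 1.07 ± 0.0723 in Nrl-/- retina) and Kcns2 (1.5 ± 0.0456 and 1.59 ± 0.0817) did not pass the test.

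**Figure D2:**
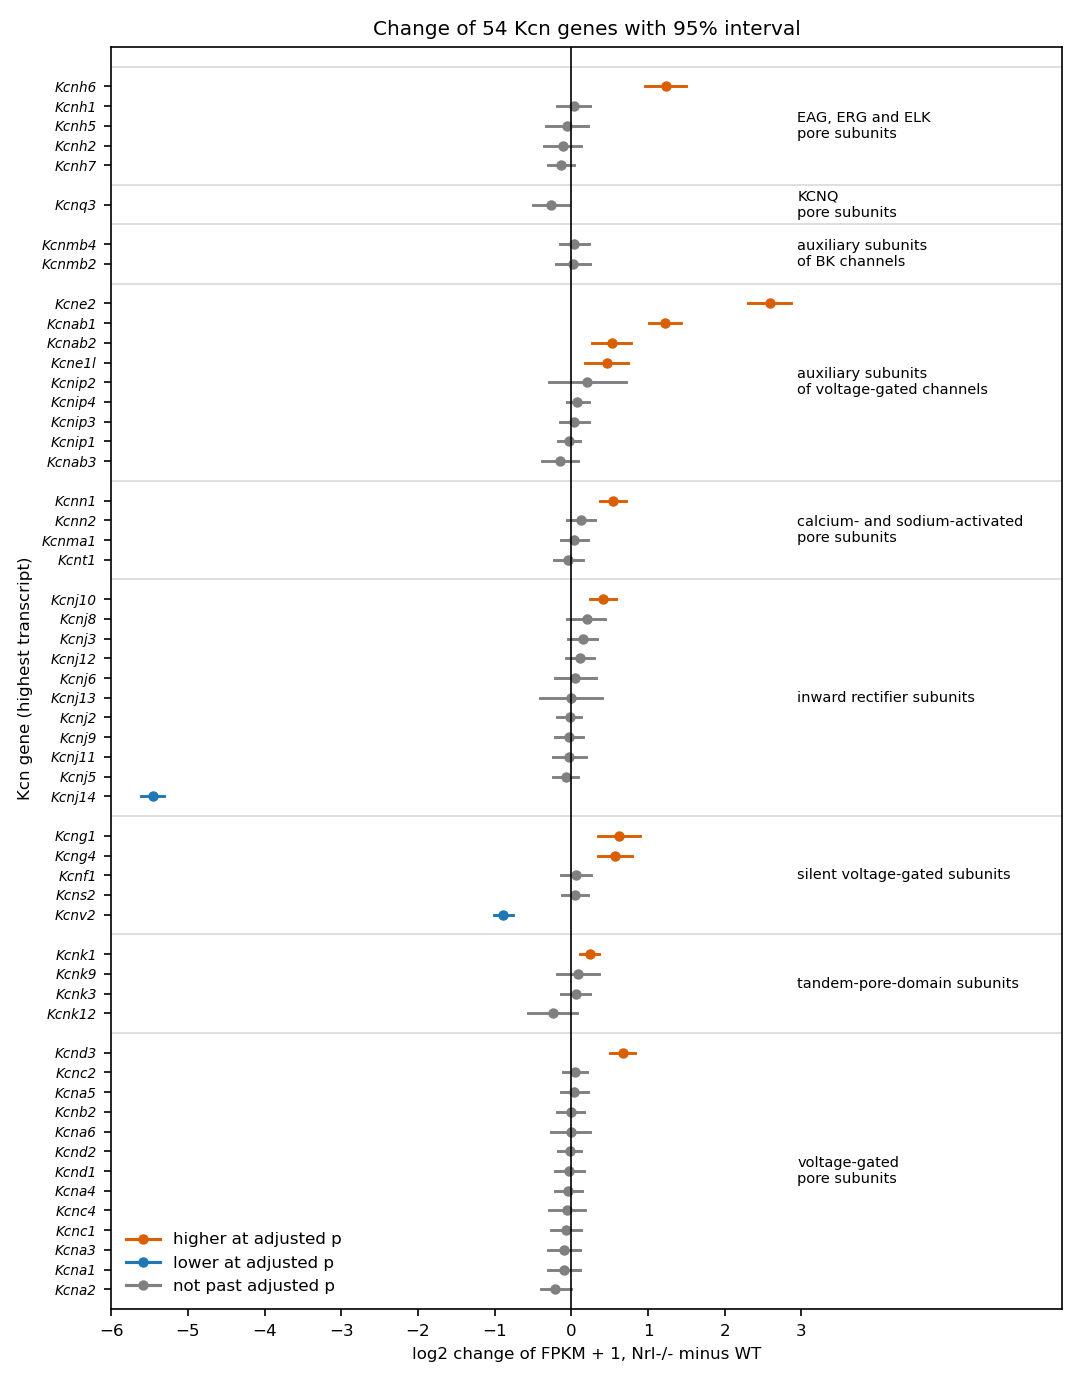
Log2 change of FPKM + 1 (Nrl-/- minus WT) with its 95% interval for the most abundant transcript of 54 of the 57 Kcn genes, by class, with genes that rose in orange, genes that fell in blue and the others in grey. Of the 9 classes, 7 hold a gene past the adjusted p, and the interval of Kcnj14 at -5.61 to -5.31 lies apart from all the others.

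Of the KCNQ, EAG, ERG and ELK pores, Kcnh6 alone passed the test. It encodes the ERG subunit Kv11.2 and lies on chr11:105869438-105895863 on the plus strand. Kcnh6 had 12.3, 10.2 and 8.0 FPKM in WT and 24.1, 25.2 and 25.2 in Nrl-/- replicates 1 to 3. WT libraries were spread more than Nrl-/- libraries, and the genotypes did not overlap (2.45-fold, log2 change 1.23 ± 0.12, limma adjusted p = 5.6e-05). Kcnh2, the ERG gene whose product Kv11.1 carries a cardiac repolarizing current, had an interval of -0.35 to 0.13 around a log2 change of -0.11. Kcnq3, a subunit of the M-current, was lower in every Nrl-/- library (1.48, 1.14 and 0.972 FPKM in WT, 0.840, 0.778 and 0.840 in Nrl-/- retina), but its log2 change of -0.27 did not pass (limma adjusted p = 0.071). It passed under median-of-ratios scaling (-0.32, adjusted p = 0.042) and without WT replicate 3 (-0.34, adjusted p = 0.030).

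Inward rectifiers were the largest letter group, with 11 symbols, of which 1 rose, 1 fell and 9 did not pass. Kcnj10 encodes Kir4.1, the main potassium channel of Müller glia. It had 13.2, 11.4 and 10.96 FPKM in WT and 16.6, 16.03 and 15.7 in Nrl-/- libraries, and every Nrl-/- library was above the WT range (log2 change 0.42 ± 0.07, limma adjusted p = 0.0021). The summed FPKM of 11 Müller glia markers was 1176 to 1248 in WT and 1302 to 1373 in Nrl-/- libraries, and 4 of the 11 rose, beside 28.3% of all symbols, with a median log2 change of 0.17. Among those that rose, Apoe went from a mean of 136 to 199 FPKM and Clu from 148 to 190. Of the 11, 7 did not pass, among them the most abundant, Glul, with means of 545 FPKM in WT and 530 in Nrl-/- retina. The part of Müller glia in the rise of Kcnj10 was not tested. Kcnj9, encoding the G protein-gated subunit Kir3.3, was the most abundant inward rectifier in Nrl-/- retina, with 25.2 ± 2.92 FPKM in WT and 24.6 ± 0.611 in Nrl-/- libraries and an interval of -0.21 to 0.15 for the log2 change.

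Kcnj13, encoding Kir7.1 of the retinal pigment epithelium, varied within the genotypes. It had 1.35, 2.20 and 0.853 FPKM in WT and 1.20, 1.68 and 1.35 in Nrl-/- replicates 1 to 3. The summed FPKM of 8 pigment epithelium markers was 37.0, 65.6 and 20.1 in WT and 44.2, 45.1 and 32.0 in Nrl-/- libraries, so that WT replicate 2 was highest and WT replicate 3 lowest in both. None of those 8 markers passed the test, and the log2 change of Kcnj13 had an interval of -0.41 to 0.40. An exon of Kcnj13 overlaps Gigyf2 on the opposite strand.

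Of the calcium- and sodium-activated pores 1 of 4 rose. Kcnn1, the small-conductance calcium-activated subunit SK1, had 2.61, 2.27 and 2.18 FPKM in WT and 3.96, 3.72 and 3.99 in Nrl-/- libraries without overlap (log2 change 0.55 ± 0.08, limma adjusted p = 5.6e-04). Kcnn2, encoding SK2, was more abundant, with 4.31, 3.96 and 4.28 FPKM in WT and 4.94, 4.94 and 4.13 in Nrl-/- retina, and did not pass. The BK pore gene Kcnma1 had 16.5, 14.9 and 13.5 FPKM in WT and 15.1, 14.8 and 16.4 in Nrl-/- retina, and its log2 change had an interval of -0.13 to 0.22. Kcnt1, a sodium-activated pore, had 3.08, 3.0 and 2.86 FPKM in WT and 2.56, 2.81 and 3.26 in Nrl-/- libraries. Both genes overlapped between genotypes.

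Of the 4 K2P genes, which carry background current, Kcnk1 (TWIK-1) was the highest and rose. Its values were 10.7, 11.1 and 10.9 FPKM in WT and 13.4, 12.8 and 13.03 in Nrl-/- retina, a small and tight difference of 1.20-fold (log2 change 0.24 ± 0.05, limma adjusted p = 0.0069). Under median-of-ratios scaling it was 0.14 (adjusted p = 0.073). Kcnk12 had a mean of 0.692 ± 0.343 FPKM in WT, in which WT replicate 1 at 1.08 was apart from 0.537 and 0.454.

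WT replicate 1 was the highest WT library in 54 of the 75 Kcn transcripts (72.0%), beside 38.2% of all transcripts. Without it 14 Kcn transcripts rose and 4 fell, beside 3975 and 1456 of all 15142 transcripts. All 15 genes that passed with WT replicate 1 still did. The 3 added transcripts included a minor form of Kcnd3 (NM_019931, log2 change 0.54, adjusted p = 0.0041), which rose, and a form of Kcnip4 (NM_001199243, -0.25, adjusted p = 0.034), which fell. In the first of these, WT replicate 1 was at 1.36 FPKM and the other WT libraries at 0.414 and 0.385, against 0.945 to 1.13 in Nrl-/- libraries.

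Of the 57 genes, 8 had several transcripts in the table, 26 in all, among them Kcnc1, Kcnd3, Kcnip1 to Kcnip4 and Kcnj6. With all 6 libraries, the main form of Kcnd3 was the one transcript among these 26 that passed the test. How reads shared by transcripts of a gene were divided was set by the authors' estimate, so differences between forms of a gene are uncertain.

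**Figure D3:**
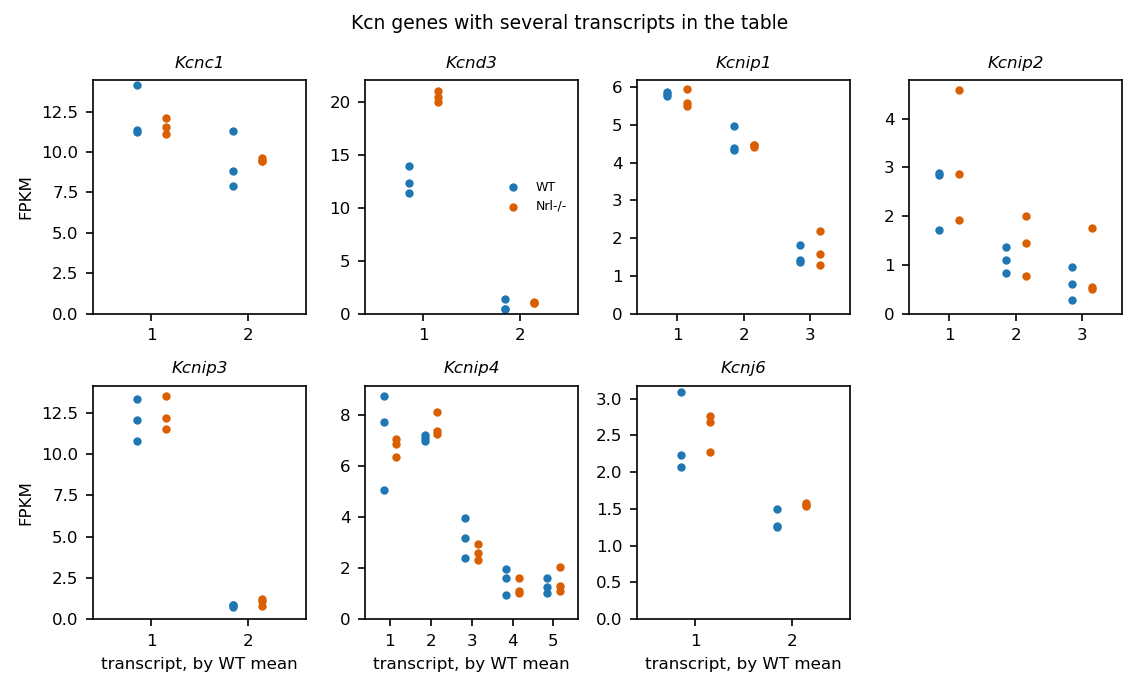
FPKM in each of the 3 WT (blue) and 3 Nrl-/- (orange) libraries for the transcripts of 7 of the 8 Kcn genes with several transcripts, numbered from the highest WT mean down. The genotypes are apart in transcript 1 of Kcnd3, from at most 13.9 to at least 20.0 FPKM, and in 1 transcript each of Kcnip4 and Kcnj6.

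Of the 18 Kcn genes with a WT mean of at least 10 FPKM, 11 passed the adjusted p (61.1%), beside 49.7% of all 4381 symbols at that level. Of the 39 below it, 4 did (Kcne1l, Kcng1, Kcng4 and Kcnn1, 10.3%), beside 32.3% of all 7764 symbols. The most abundant gene of its letter passed in 10 of 17 letters. These genes were picked by abundance, and their count is to be read beside the 49.7% and 32.3% of all symbols above. Among the 42 genes that did not pass, log2 changes lay between -0.27 and 0.21, and for 41 the 95% interval lay within 1.5-fold on the scale of FPKM + 1. For genes of low FPKM this does not exclude a larger change in FPKM itself, as for Kcnk12 with means of 0.692 and 0.411 FPKM in WT and Nrl-/- retina.

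Summed over the 75 transcripts, Kcn expression was 893, 807 and 763 FPKM in WT and 847, 838 and 787 in Nrl-/- replicates 1 to 3, so that the genotypes overlapped. The composition differed. Auxiliary subunits of voltage-gated channels made up 19.2% ± 1.04 of the sum in WT and 42.8% ± 1.84 in Nrl-/- libraries (SD, n = 3). Silent subunits went from 17.7% ± 1.44 to 10.5% ± 0.130 and inward rectifiers from 15.2% ± 0.300 to 8.19% ± 0.0691. In FPKM, the auxiliary class went from 158 ± 12.4 to 353 ± 28.7, the inward rectifiers from 125 ± 9.98 to 67.5 ± 2.11 and the silent subunits from 145 ± 0.867 to 86.6 ± 4.39. These sums rest on few genes (Kcne2, Kcnv2 and Kcnj14 in their classes) and are given without a test.

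**Figure D4:**
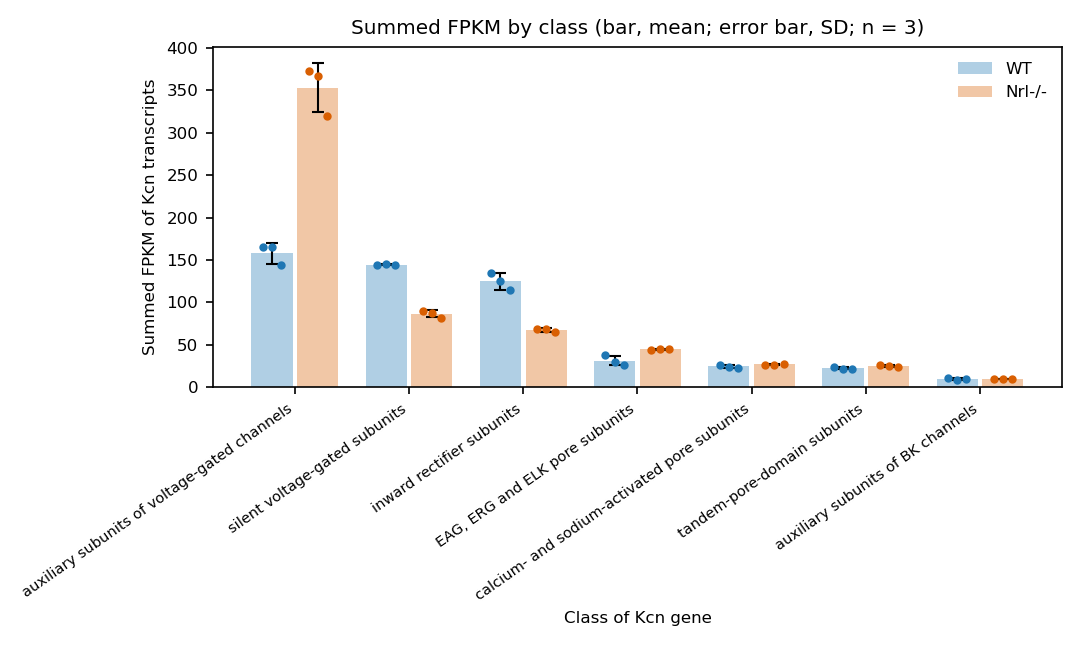
Summed FPKM of Kcn transcripts in 7 of the 9 classes in WT (blue) and Nrl-/- (orange) retina, with the mean of 3 libraries as a bar, the SD as an error bar and each library as a point. Auxiliary subunits of voltage-gated channels are at 158 FPKM in WT and at 353 in Nrl-/- retina, and silent subunits and inward rectifiers are lower in Nrl-/- retina.

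Proximal promoters of 3 of the 12 genes that rose are shown, chosen with earlier results of these data known. NRL, which Nrl-/- retina lacks, binds MAF-type elements and acts with the photoreceptor homeodomain factor CRX. The part of either factor in these rises was not tested. RefSeq promoter windows (GRCm38.p6, 250 bases before to 50 bases after a start) were held for 40 of the 57 Kcn genes and for 10 of the 15 that passed the test. All 10 were genes that rose, so no promoter of a fallen gene was searched. The windows were searched on both strands for TAATCC, a CRX core, and TGCTGA, a core of MAF-type elements. Kcne2, with the highest rise, has windows at chr16:92292139-92292438 and chr16:92295366-92295665 (plus strand), Kcng4 at chr8:119635631-119635930 (minus strand) and Kcnh6 at chr11:106007898-106008197 (plus strand). Capitals mark matches to either motif or its reverse complement.
Kcne2, first window: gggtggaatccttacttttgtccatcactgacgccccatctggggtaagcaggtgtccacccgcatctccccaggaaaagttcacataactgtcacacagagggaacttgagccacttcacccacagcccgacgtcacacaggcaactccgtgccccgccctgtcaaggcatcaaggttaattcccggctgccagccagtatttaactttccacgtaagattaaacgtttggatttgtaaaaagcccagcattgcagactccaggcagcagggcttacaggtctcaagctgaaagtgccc
Kcne2, second window: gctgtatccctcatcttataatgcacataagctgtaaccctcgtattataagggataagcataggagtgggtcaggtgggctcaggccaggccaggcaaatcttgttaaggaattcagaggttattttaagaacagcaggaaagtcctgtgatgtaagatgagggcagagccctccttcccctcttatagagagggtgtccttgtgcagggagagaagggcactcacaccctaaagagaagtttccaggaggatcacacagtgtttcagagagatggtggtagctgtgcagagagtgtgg
Kcng4: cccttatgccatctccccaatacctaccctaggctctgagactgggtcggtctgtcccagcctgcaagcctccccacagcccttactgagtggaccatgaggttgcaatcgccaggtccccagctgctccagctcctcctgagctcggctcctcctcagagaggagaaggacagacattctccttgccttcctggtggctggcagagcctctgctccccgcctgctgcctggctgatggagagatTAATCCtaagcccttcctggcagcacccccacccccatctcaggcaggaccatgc
Kcnh6: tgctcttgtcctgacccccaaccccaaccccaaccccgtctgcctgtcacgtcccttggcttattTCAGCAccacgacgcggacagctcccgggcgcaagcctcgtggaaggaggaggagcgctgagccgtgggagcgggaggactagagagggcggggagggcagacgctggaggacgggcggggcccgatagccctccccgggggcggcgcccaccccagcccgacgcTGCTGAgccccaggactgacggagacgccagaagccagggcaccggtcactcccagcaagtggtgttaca

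Neither Kcne2 window held these letters. The Kcng4 window held TAATCC starting 5 bases before the start, and the Kcnh6 window held TGCTGA starting 20 bases before it and its reverse complement starting 185 bases before it. TAATCC was found in 2 of 55 Kcn windows (3.64%), in Kcng4 and Kcnj9, beside 7.06% of all 32851 windows. TGCTGA was found in 9 of 55 Kcn windows (16.4%), beside 19.5% of all windows. Among the 16 windows of the 10 genes that rose and had a promoter entry, of 12 that rose, 1 held TAATCC and 2 held TGCTGA, those of Kcnh6 and Kcnab2. A match is a description of the sequence and not a binding site.

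Of 20 measured partners (anchors, adhesion proteins and auxiliary proteins outside the Kcn names), 3 rose and 3 fell, with a median log2 change of 0.06. Over all 12145 symbols 28.3% rose and 10.2% fell, with a median of 0.09, and these shares stand beside the counts of pump subunits, cotransporters and HCN channels too. Amigo1, an adhesion protein that binds Kv2 channels, rose with a log2 change of 0.38 (limma adjusted p = 0.0024).

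Of 9 sodium potassium pump subunits, which restore the gradient that these channels use, 3 rose and 2 fell. Atp1b2 rose from 404, 366 and 339 FPKM in WT to 604, 604 and 608 in Nrl-/- libraries (log2 change 0.71 ± 0.07, limma adjusted p = 6.6e-05). Of 5 cation chloride cotransporters (Slc12a2 and Slc12a4 to Slc12a7) 1 rose, Slc12a4, and the neuronal Slc12a5 had a log2 change of -0.02. Among the 4 HCN channels, which are related in sequence to Kv pores and open on hyperpolarization, 1 rose and 1 fell, and the one that rose was Hcn2, with a log2 change of 0.22 (limma adjusted p = 0.045).

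The lists of markers of other cells, lens aside, had median log2 changes between -0.05 and 0.35. Their counts are to be read beside the 28.3% and 10.2% of all symbols that rose and fell. Bipolar markers had 5 of 10 genes risen and 1 fallen, with summed FPKM of 313 to 357 in WT and 480 to 536 in Nrl-/- libraries, of which Cabp5 held 38.0 ± 3.52 and 161.8 ± 5.75 (SD, n = 3). Microglia markers had 4 of 7 risen, with sums of 12.6 to 12.9 and 15.6 to 17.7. Ganglion cell markers had 2 of 11 risen and 1 fallen, and none of 8 amacrine markers passed. Horizontal cell markers and vessel markers each had 1 gene risen and 1 fallen, of 4 and 8 measured, none of 5 erythrocyte genes passed, and the 1 lens gene measured fell from at most 3.0 to at most 0.149 FPKM. The part of these cells in the changes of Kcn genes was not tested.

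A separate table, from the authors' TopHat alignments with Ensembl annotation, gives 1 pooled FPKM per genotype and so allows no test. It held 105 Kcn transcripts of 56 symbols, of which 53 were in both tables. Of the 15 genes past the test, 14 had a value there and all 14 moved in the same direction when transcripts were summed. The libraries are the same ones, so this is no independent measurement. Kcnj14 was at 101 FPKM in WT and 0.759 in Nrl-/- retina, Kcnv2 at 125 and 67.4, and Kcne2 at 29.6 and 178. The log2 ratio of Kcng1, at 3.49, from 0.187 to 2.09 FPKM, was above that of the main table, where it was 0.62 with a pseudocount of 1 and 1.32 with 0.1. The cause of this gap was not tested. Kcnab1, Kcnb2, Kcnf1 and Kcnk12 were read in the main table alone, and 3 symbols, Kcnrg and Kcnu1 among them, in the TopHat table alone. The tables of non-coding RNAs (746 transcripts) and pseudogenes (126 transcripts) held 0 Kcn symbols.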

How the data were processed

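RNA of whole retinas from 3 WT and 3 Nrl-/- mice was sequenced as single reads from TruSeq libraries. The authors aligned reads to mm9 with BWA and computed FPKM per transcript in Partek (versions not given in the sources used here). Transcripts that reached an FPKM of 1 in any library were kept by the authors, and log2(FPKM + 1) was deposited. Pooled FPKM per genotype, from TopHat and Cufflinks, was deposited by the authors too. Their lists of changed transcripts, with fold changes and p-values, were not used.

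All 15142 transcripts were fitted with limma 3.58.1 (trended prior, R 4.3.3), two-sided, with Benjamini-Hochberg adjustment. FPKM means and SDs came from back-transformed values. The tables hold no counts, so read depth behind a value is unknown. A gene is represented by its transcript with the highest mean FPKM, full values were given for genes past the adjusted p and for the most abundant gene of each subfamily letter, and genes beyond that rule were named after their values were seen. The genes, marker and partner lists, motifs and shown promoters were chosen with earlier results of these data known. On simulated data, limma recovered 37 of 50 transcripts changed 1.5-fold and 45 of 50 changed 2-fold, and called 9 of 14942 unchanged ones. Changes were planted on the scale of log2(FPKM + 1), in transcripts with a WT mean of at least 2 on it. The recovery therefore does not cover Kcn transcripts below that level, such as Kcng1 and Kcnk12. Noise was normal and independent between libraries, so the calls of unchanged transcripts hold for such noise alone. The values of several Kcn and partner genes are not reported here, and those genes stay in the counts. Positions are from GENCODE vM1 (NCBIM37).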

Additional observations from a re-analysis of the deposited data

How the results depend on the processing

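Of 19 alternatives, none reversed a Kcn gene past the adjusted p, and 12 of the 15 genes passed in every alternative that tested them. Under each of the 4 scalings (median-of-ratios, upper-quartile, quantile, and without the 25 highest transcripts) 11 Kcn transcripts rose and 5 fell, and 4 and 3 did with 1.5-fold. Of all 15142 transcripts 2451 to 2563 rose and 2214 to 2275 fell, and 659 to 674 and 664 to 675 did with 1.5-fold. Kcnk1 did not pass under these scalings (log2 change 0.14 to 0.15). In an ordinary linear model Kcnab2 (adjusted p = 0.076) and Kcne1l (adjusted p = 0.11) did not pass. A replicate block gave 12 risen and 3 fallen Kcn transcripts (6 and 3 with 1.5-fold), as without it, and changed no Kcn call. Of all transcripts 3973 rose and 1520 fell with the block (874 and 544 with 1.5-fold). Residuals of equal replicate numbers correlated at 0.0286, 0.0237 and 0.124, so the numbers were not taken as pairs. Leaving out 1 library gave 11 to 14 risen and 3 to 5 fallen Kcn transcripts, and 5 to 9 and 3 with 1.5-fold. Of all transcripts 2784 to 4180 then rose and 1122 to 1578 fell, and 839 to 903 and 532 to 561 did with 1.5-fold. The count of 5 fallen, reached without WT replicate 3, added Kcna2 and Kcnq3. With pseudocounts of 0.1 and 0.5 the risen Kcn transcripts with 1.5-fold were 9 and 8, beside 1195 and 1015 of all transcripts. With the pseudocount of 1 these counts were 6 and 864. Values rest on 3 animals per genotype, and without counts no interval for depth can be given.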
